A study of Mus musculus with 8 samples.

Results

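The skeletal muscle genes described here are 34 genes of contraction and energy supply in striated muscle, measured by microarray in mouse lung. A gene was included by name, and it was represented by the probe set (a group of probes for 1 transcript) with the highest mean over the 8 arrays, out of 51 probe sets that carried a single member symbol. The whole table gave 18191 genes by the same rule. The members were chosen after a difference between treated and control lungs on day 1 was known, so their day 1 values are a description and carry no test.

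Lungs came from male ICR mice, an outbred stock, labelled 5 to 6 weeks old. All mice were anesthetized with pentobarbital, and the trachea was exposed through a 1 cm incision in the skin of the neck for 1 instillation. The PF68 groups received Pluronic F-68, the surfactant used as solvent control. The SWCNT groups received 0.5 mg of single-walled carbon nanotubes in 50 µl of 0.1% Pluronic F-68. Lobe 1 of the right lung was taken on day 1 (acute phase) or day 7 (sub-chronic phase), and each combination of treatment and day has 2 arrays. The comparison addressed is that of SWCNT with its solvent at each time. The arrays of a group are called biological replicates in the labels, but no animals are named there. The p-values therefore reflect the variation among these arrays alone, part of which may be technical. No untreated lungs were among the samples, so every difference is against the solvent.

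Skeletal muscle shortens when myosin heads of the thick filament pull on actin of the thin filament, after calcium released from the sarcoplasmic reticulum has bound troponin. Fast fibres and slow fibres build these filaments from different members of the same gene families, and slow fibres share many of theirs with the heart. Healthy lung is not known to contain skeletal muscle fibres, while heart muscle sleeves of pulmonary veins and the smooth muscle of airways and vessels lie within it.

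Lung defined the samples: the mean log2 signal of 9 lung markers, among them the surfactant gene Sftpc, the club cell gene Scgb1a1 and the alveolar type 1 gene Ager, was 6.32 to 6.49 on all 8 arrays. Once sorted, the values of all arrays were identical, with a median of -0.628 and read as log2, so that every difference is relative to a common distribution. A signal below that median is called dim, which does not mean absent, because no background flags were used. For beta-actin the 3′ probe set exceeded the 5′ probe set, a gap that grows as RNA is shortened, by 2.01 to 2.04 in PF68 day 1, 1.31 to 1.36 in SWCNT day 1, 3.25 to 3.29 in PF68 day 7 and 2.94 to 2.99 in SWCNT day 7. It therefore differed between the groups, and its part in the results below was not tested.

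Muscle genes are controlled in part by DNA elements near their starts, and RefSeq promoter sequences of build GRCm38.p6 were available for 24 of the 34. The letters CAGCTG, one form of the E-box that MyoD and related factors bind, were found in the 250 bases before the start in 15 of 28 member windows (53.6%) and in 13% of all 32851 windows. The looser form CANNTG, which contains the former, was in 82.1% of member windows and 66.2% of all windows, and TATAAA in 17.9% and 12.4%. Both strands were searched. The following 100 bases before the start show the CAGCTG, in capitals, in each member window that holds it there, from fast fibre genes, a gene of glycogen use and slow fibre genes.
Mylpf (chr7:127211508-127211607, plus strand): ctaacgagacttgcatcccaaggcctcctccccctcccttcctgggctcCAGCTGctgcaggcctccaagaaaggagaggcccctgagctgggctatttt
Atp2a1 (chr7:126463074-126463173, minus strand): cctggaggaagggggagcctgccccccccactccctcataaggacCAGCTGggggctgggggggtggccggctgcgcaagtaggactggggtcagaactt
Myh4 (chr11:67237712-67237811, plus strand): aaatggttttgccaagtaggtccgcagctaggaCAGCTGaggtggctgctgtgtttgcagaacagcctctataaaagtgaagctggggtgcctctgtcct
Pygm (chr19:6384308-6384407, plus strand): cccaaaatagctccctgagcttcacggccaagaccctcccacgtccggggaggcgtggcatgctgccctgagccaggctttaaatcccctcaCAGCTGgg
Mybpc1 (chr10:88605153-88605252, minus strand): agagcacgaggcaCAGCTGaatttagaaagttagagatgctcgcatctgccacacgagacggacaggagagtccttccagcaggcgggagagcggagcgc
Tnni1 (chr1:135799321-135799420, plus strand): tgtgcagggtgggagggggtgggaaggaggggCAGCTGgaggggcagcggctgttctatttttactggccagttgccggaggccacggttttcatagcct
The match thus lay before 4 members that were higher by 1.78 to 4.24 in SWCNT on day 1 (Pygm, Myh4, Atp2a1 and Mylpf). It also lay before the slow fibre genes Mybpc1 and Tnni1, at -0.28 and -0.52. A match is a description of these letters and not of a bound site.

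The A/T-rich motif of MEF2, a transcription factor of muscle genes, was found in 4 of 28 member windows (14.3%) and in 1.69% of all windows. The 60 bases around each are shown because neighbouring myosin genes carry the same letters; capitals mark the motif.
Myh1 (chr11:67199866-67199925, plus strand): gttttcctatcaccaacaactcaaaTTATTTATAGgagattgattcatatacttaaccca
Myh4 (chr11:67237605-67237664, plus strand): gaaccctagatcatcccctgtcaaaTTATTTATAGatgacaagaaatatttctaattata
Pvalb (chr15:78206546-78206605, minus strand): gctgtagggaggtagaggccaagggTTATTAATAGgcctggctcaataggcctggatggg
Pgam2 (chr11:5803842-5803901, minus strand): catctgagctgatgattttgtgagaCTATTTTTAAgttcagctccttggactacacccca
The matches of Myh1 and Myh4 were identical over the 10 letters. In the RefSeq table Myh3, Myh2, Myh1, Myh4, Myh8 and Myh13 are consecutive protein-coding genes on chromosome 11, and Myh2 had no match in its window.

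On day 1, 24 of the 34 members were higher by at least 1 log2 unit in SWCNT than in PF68 lungs, none was lower by that much, and the median difference was 1.76. Over all genes 3.17% were higher and 3.13% lower by at least 1, and the median was -0.02. For 29 members both SWCNT arrays lay above both PF68 arrays (22.8% of all genes) and for none below (25.6%); the arrays of the other 5, Tnni1, Actn3, Mybpc1, Cacna1s and Trdn, overlapped. Since this contrast chose the members, nothing is read from these shares. On PF68 day 1 arrays 18 members lay below the array median on both arrays, and counted from that median the median difference was 1.53, with 22 members at 1 or more (0.924% of all genes). In RNA of a whole lobe, more cells of a type and more RNA per cell cannot be told apart.

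**Figure D1:**
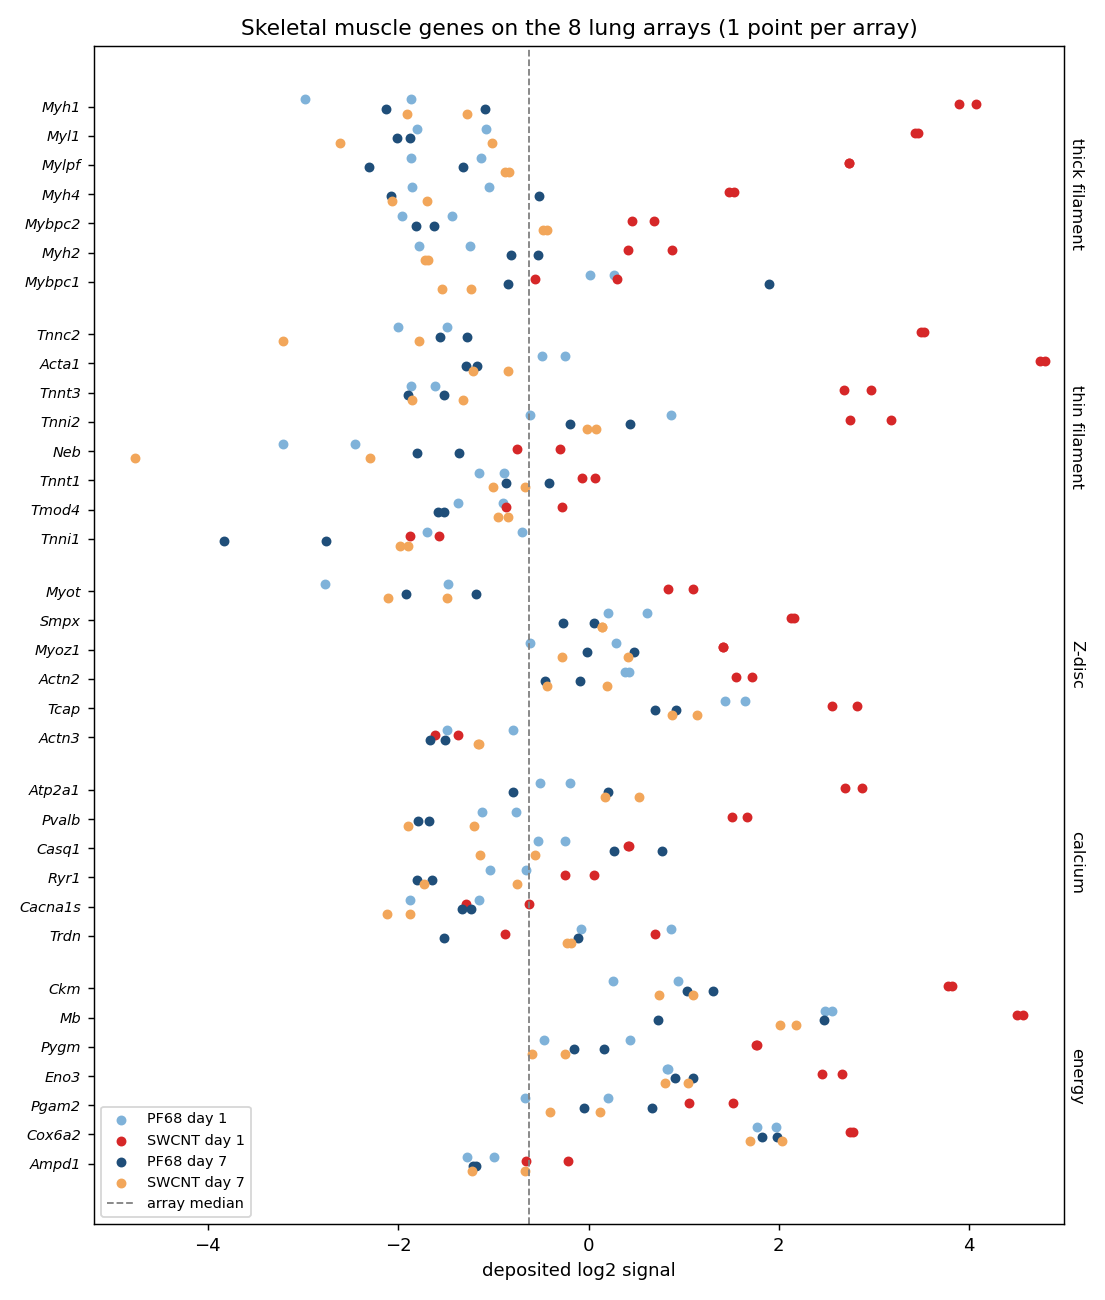
Deposited log2 signal (x axis) of the 34 members (rows, grouped by role), with 1 point for each of the 8 arrays and the array median of -0.628 as a dashed line. The SWCNT day 1 points stand to the right of the PF68 day 1 points in 29 members, while the day 7 groups and PF68 day 1 mostly lie near or below the dashed line.

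The median over the 34 members was -0.82 and -0.69 on the PF68 day 1 arrays, 1.54 and 1.51 on SWCNT day 1, -1.02 and -0.97 on PF68 day 7 and -0.71 and -1.0 on SWCNT day 7. At or above the array median were 16 and 15 members in PF68 day 1, 30 and 28 in SWCNT day 1, 16 and 14 in PF68 day 7 and 15 and 14 in SWCNT day 7. The SWCNT day 1 arrays were thus alike and stood apart from the other 6. Between these arrays the members differed by a median of 0.19 in absolute log2 units, against 0.52 between the PF68 day 1 arrays, where most were dim, and 0.35 in both day 7 groups. The first replicate was the higher for 18 of 34 members in SWCNT day 1, so neither array was higher throughout.

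Thick filament genes had the largest differences on day 1, with a median of 2.95 over 7 members. Myh1, the heavy chain of fast IIx fibres, read -1.87 and -2.98 in PF68, 4.07 and 3.89 in SWCNT on day 1, -2.13 and -1.09 in PF68 and -1.28 and -1.91 in SWCNT on day 7. Only the SWCNT day 1 arrays were above the array median, with a day 1 difference of 6.41 ± 0.51 (log2 ± SE, n = 2 arrays per group), or 4.61 from the array median. The name of its probe set has a suffix given to probe sets that can match more than 1 transcript. Of the other 2 probe sets for Myh1, one with another such suffix differed by 6.45 and the remaining one, dim on all arrays, by 0.46. The probe sets used for 9 members had such a suffix, among them those of Tnni2 and Trdn.

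Myh4, the heavy chain of the fastest IIb fibres, read -1.85 and -1.05 in PF68 and 1.53 and 1.48 in SWCNT on day 1, and -0.52, -2.08, -2.06 and -1.70 on day 7 (PF68, then SWCNT). Its difference was 2.95 ± 0.54, or 2.13 from the array median, and 0.18 in its other, dimmer probe set. Myh2, the heavy chain of fast oxidative IIa fibres, read -1.24 and -1.78 in PF68 and 0.42 and 0.88 in SWCNT, a difference of 2.16 ± 0.25. All 3 heavy chains of adult fast fibres were therefore above their PF68 arrays on day 1, with no overlap.

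The light chains followed. Myl1, an essential light chain of fast fibres, read -1.80 and -1.08 in PF68 and 3.43 and 3.46 in SWCNT (4.89 ± 0.53), then -2.01 and -1.88 in PF68 and -2.61 and -1.01 in SWCNT on day 7. Mylpf, the regulatory light chain of fast fibres, read -1.13 and -1.86 in PF68 and 2.74 on both SWCNT arrays (4.24 ± 0.38). Mybpc2, the fast form of myosin binding protein C, read -1.43 and -1.96 in PF68 and 0.46 and 0.69 in SWCNT on day 1 (2.28 ± 0.21). Mybpc1, the slow form, was at 0.27 and 0.02 in PF68 and -0.56 and 0.30 in SWCNT, so its arrays overlapped; on day 7 its SWCNT arrays read -1.23 and -1.54. Its 3 probe sets differed by -0.28, 1.35 and -0.03.

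Thin filament genes had a median difference of 2.57 over 8 members. Acta1, the actin of skeletal muscle, read -0.25 and -0.49 in PF68 and 4.74 and 4.80 in SWCNT on day 1, then -1.17 and -1.29 in PF68 and -0.85 and -1.21 in SWCNT on day 7. The day 1 difference was 5.13 ± 0.18 (35.1-fold). Tnnc2, the calcium-binding troponin C of fast fibres, read -1.49 and -2.0 in PF68 and 3.49 and 3.53 in SWCNT (5.26 ± 0.47, or 4.14 from the array median), then -1.28 and -1.56 in PF68 and -3.21 and -1.78 in SWCNT on day 7. Both genes were high on SWCNT day 1 arrays alone. Neb, which encodes nebulin, the giant protein along the thin filament, read -3.21 and -2.45 in PF68 and -0.30 and -0.75 in SWCNT. Its difference of 2.30 ± 0.79 shrank to 0.16 from the array median, since 1 of the SWCNT arrays was itself below it. Tmod4, which encodes the tropomodulin that caps thin filaments of skeletal muscle, read -1.37 and -0.90 in PF68 and -0.87 and -0.28 in SWCNT on day 1 (0.56 ± 0.25).

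Z-disc genes, whose proteins anchor the filaments at the ends of the sarcomere, had a median difference of 1.40 over 6 members. Myot, the gene of myotilin, read -2.77 and -1.48 in PF68 and 1.10 and 0.84 in SWCNT (3.10 ± 0.50, or 1.60 from the array median), then -1.92 and -1.18 in PF68 and -2.11 and -1.49 in SWCNT on day 7. Smpx, a small protein of striated muscle, read 0.61 and 0.20 in PF68 and 2.16 and 2.13 in SWCNT (1.74 ± 0.19), then -0.27 and 0.06 in PF68 and 0.14 and 0.14 in SWCNT on day 7. In contrast to these, Actn3, the alpha-actinin of fast fibres, was dim on all 8 arrays, at -1.49 and -0.79 in PF68 and -1.37 and -1.61 in SWCNT on day 1 and -1.67 and -1.51 in PF68 on day 7. Myoz1, Actn2 and Tcap (2.56 and 2.82 in SWCNT on day 1, 0.88 and 1.14 in SWCNT on day 7), which were above the array median on all arrays, were higher by 1.57 ± 0.39, 1.23 ± 0.25 and 1.15 ± 0.18.

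Genes of calcium release and uptake had the lowest median of the 5 roles, 0.78 over 6 members, with a range from -0.48 to 3.14. Atp2a1, the calcium pump of fast fibres (SERCA1), read -0.19 and -0.51 in PF68 and 2.87 and 2.70 in SWCNT on day 1, with 0.21, -0.79, 0.53 and 0.17 on day 7. Pvalb, the calcium buffer parvalbumin of fast fibres, read -0.76 and -1.12 in PF68 and 1.67 and 1.51 in SWCNT (2.53 ± 0.27), then -1.79 and -1.68 in PF68 and -1.90 and -1.20 in SWCNT on day 7. Both were clear of PF68. Casq1, the calcium store protein of the reticulum, read -0.53 and -0.25 in PF68 and 0.41 and 0.43 in SWCNT on day 1 (0.81 ± 0.27). The release channel gene Ryr1 differed by 0.75 ± 0.35, and by -0.12 in its other probe set, and the voltage sensor gene Cacna1s by 0.55 ± 0.32, the latter dim on all 8 arrays. Trdn, the gene of triadin, which ties the release channel to its store, read 0.87 and -0.08 in PF68 and 0.70 and -0.88 in SWCNT on day 1, so its arrays overlapped, and -1.52 and -0.11 in PF68 and -0.23 and -0.18 in SWCNT on day 7. It had 6 probe sets that differed from -0.48, in the brightest, to 1.46 in the next, so no direction is given for it.

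Energy genes were all higher without overlap, with a median of 1.73 over 7 members. Ckm, the creatine kinase of muscle, read 0.26 and 0.94 in PF68, 3.82 and 3.78 in SWCNT on day 1, 1.31 and 1.03 in PF68 and 1.10 and 0.74 in SWCNT on day 7. Its difference was 3.20 ± 0.27, and -0.40 in its other, dimmer probe set. Mb, myoglobin, the oxygen store of oxidative fibres and of heart, read 2.56 and 2.49 in PF68 and 4.50 and 4.57 in SWCNT (2.0 ± 0.53; other probe set 2.57), then 0.73 and 2.47 in PF68 and 2.01 and 2.18 in SWCNT on day 7. The smallest difference was that of Ampd1, the AMP deaminase of muscle, at -1.28 and -0.99 in PF68 and -0.22 and -0.66 in SWCNT (0.69 ± 0.25), then -1.21 and -1.18 in PF68 and -0.67 and -1.22 in SWCNT on day 7. Between these stood the glycogen phosphorylase gene Pygm (1.78 ± 0.32), the muscle enolase gene Eno3 (1.73 ± 0.16), the muscle phosphoglycerate mutase gene Pgam2 (1.52 ± 0.41) and Cox6a2, a subunit of cytochrome oxidase in striated muscle (0.89 ± 0.17).

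**Figure D2:**
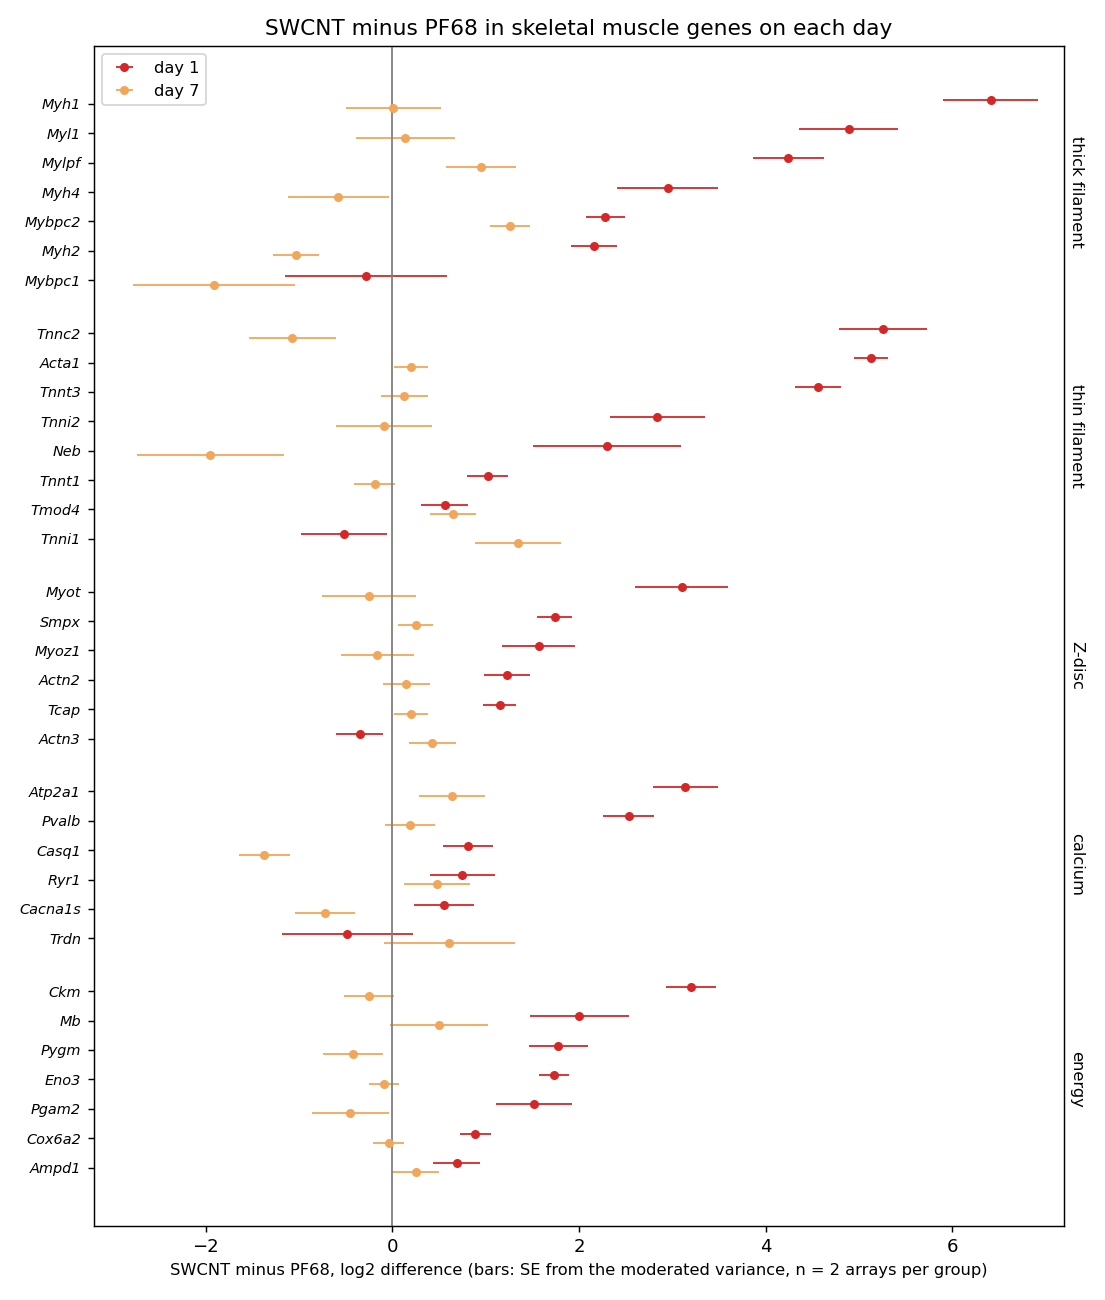
SWCNT minus PF68 log2 difference (x axis) of each member (rows, grouped by role) on day 1 and day 7, with bars for the SE from the moderated variance (n = 2 arrays per group). On day 1 the points reach 6.41 for Myh1 and the median is 1.76, while on day 7 they lie on both sides of 0 with a median of 0.07.

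Fast fibre genes stood above slow fibre genes in the day 1 difference. The median was 2.90 over 14 fast fibre members and -0.28 over the 3 slow fibre members, Tnnt1, Tnni1 and Mybpc1. That slow median was the value of Mybpc1, whose day 1 arrays overlapped and whose other probe sets differed by 1.35 and -0.03. Tnni1 (-0.52) also overlapped and was below the array median on every array. Among the slow members only Tnnt1 (1.02) was higher without overlap. The gap of 3.17 was 2.28 with all probe sets of a gene averaged and 2.53 from the array median. These are sizes without a test, because the contrast chose the members, and 3 slow genes are few.

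The troponin pairs show the gap within a protein. Tnnt3, troponin T of fast fibres, read -1.87 and -1.61 in PF68 and 2.97 and 2.68 in SWCNT on day 1 (4.56 ± 0.25), with -1.90, -1.52, -1.32 and -1.85 on day 7. Tnnt1, its slow form, read -0.89 and -1.15 in PF68 and 0.07 and -0.07 in SWCNT (1.02 ± 0.22), then -0.87 and -0.41 in PF68 and -0.67 and -1.0 in SWCNT on day 7. Both forms were thus above PF68, the fast form by more. Tnni2, troponin I of fast fibres, read 0.87 and -0.61 in PF68 and 3.18 and 2.75 in SWCNT (2.84 ± 0.51), then 0.44 and -0.19 in PF68 and 0.08 and -0.02 in SWCNT on day 7. Its other probe sets differed by 5.09 and 0.25 on day 1. Tnni1, its slow form, was below the array median on every array, at -1.70 and -0.70 in PF68 and -1.57 and -1.88 in SWCNT.

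Slow forms shared with the heart were not members, and a limma fit is given for them. Limma is a linear model fitted to all genes with moderated variances, with Benjamini-Hochberg adjustment over 18191 genes. A gene was called at an adjusted p under 0.05. This list and the other lists below were chosen with earlier results of these data known. Their day 1 calls are therefore not support from genes chosen without sight of the data. Of 7 such genes none was called on day 1, while 4 had an unadjusted p under 0.05, and the median difference was 0.74. Myh7, the slow heavy chain, was at 2.16 and 2.10 in PF68 and 1.98 and 2.09 in SWCNT (-0.09 ± 0.12, adjusted p = 0.794), against 2.16 to 6.41 in the fast heavy chains. Tnnc1 differed by 0.87 against 5.26 for Tnnc2, Myl3 by 1.37 against 4.89 for Myl1, and Atp2a2 by 0.53 against 3.14 for Atp2a1. These slow forms started higher, with PF68 day 1 means of 2.15 for Tnnc1, 0.15 for Myl3 and 4.4 for Atp2a2. The fast forms started at -1.74 for Tnnc2, -1.44 for Myl1 and -0.35 for Atp2a1. An equal gain in signal gives a smaller log2 difference from a higher start, so these gaps do not measure amounts of RNA. In calsequestrin the forms lay close together, with 0.81 for Casq1 and 0.74 for Casq2.

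**Figure D3:**
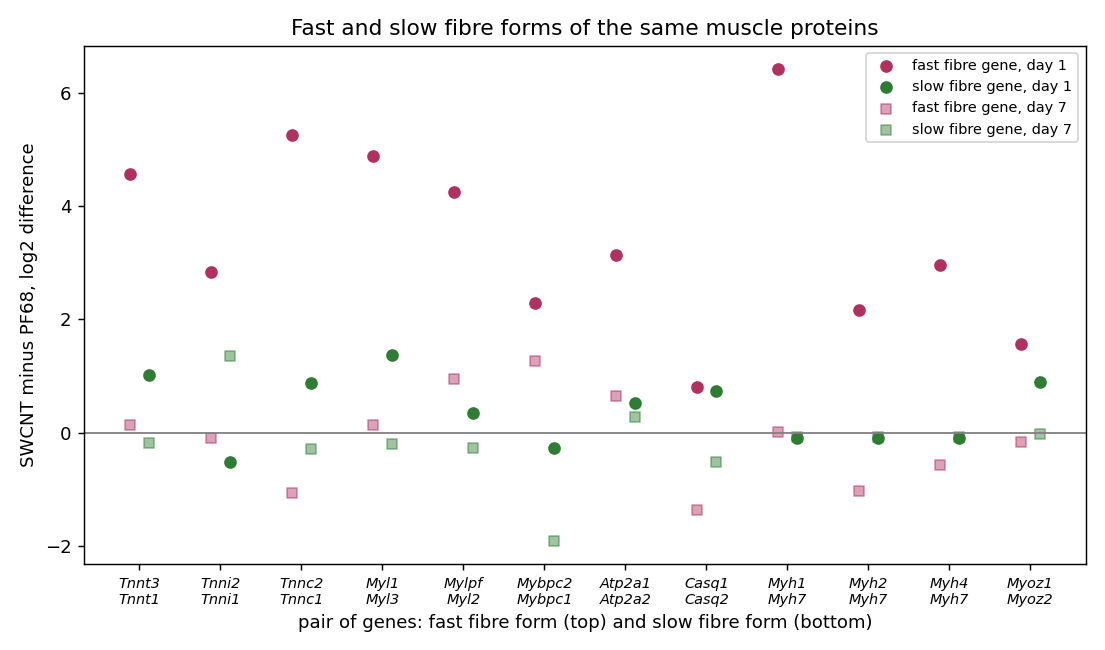
SWCNT minus PF68 log2 difference (y axis) for pairs of fast and slow fibre forms of a protein (x axis), on day 1 (circles) and day 7 (squares). On day 1 the fast form lies above the slow form in each of the 12 pairs drawn, by 0.07 for calsequestrin and up to 6.5 for Myh1 against Myh7, which stands in 3 pairs. Slow forms such as Atp2a2 and Tnnc1 had the higher PF68 day 1 signal, so the gaps do not measure amounts of RNA.

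On day 7 none of the 34 members differed between SWCNT and PF68 by limma at an adjusted p under 0.05, against 0.132% of all genes; 5 members (17.8% of all genes) had an unadjusted p under 0.05. In simulated data the same fit called 3 of 100 genes given a change of 1 log2 unit on day 7, and 52 of 100 given a change of 2. A member without a call is therefore not shown to be unchanged. The median difference was 0.07, over all genes 0.02. With no overlap 6 members were higher (25.4% of all genes) and 7 lower (23.1%). Mybpc2 was nearest to a call, at -1.62 and -1.81 in PF68 and -0.48 and -0.44 in SWCNT (1.26 ± 0.21, adjusted p = 0.0945, or 0.17 from the array median). Casq1 read 0.77 and 0.27 in PF68 and -0.56 and -1.14 in SWCNT (-1.37 ± 0.27, adjusted p = 0.108). Myh2 read -0.53 and -0.81 in PF68 and -1.69 and -1.72 in SWCNT (-1.03 ± 0.25, adjusted p = 0.144), and from the array median -0.05. None of the 3 passed, and their values lay on both sides of 0. Tnni1 read -2.76 and -3.83 in PF68 and -1.90 and -1.98 in SWCNT (1.35 ± 0.46, adjusted p = 0.218). Tmod4 read -1.58 and -1.52 in PF68 and -0.95 and -0.85 in SWCNT (0.65 ± 0.25, adjusted p = 0.271). Mylpf read -1.32 and -2.31 in PF68 and -0.84 and -0.88 in SWCNT (0.95 ± 0.38, adjusted p = 0.28). All 3 were below the array median on every day 7 array, and from that median they differed by 0.00.

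The day 7 result depends on the scale: with arrays shifted to their bacterial hybridization spikes 8 members were called higher (26.6% of all genes called in either direction), the median member was at 0.60 and the median gene at 0.54. Mybpc2 alone was called higher when dim probe sets were left out (2.18% of all genes called). Casq1 alone was called lower with a variance trend (7.79%).

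Fast fibre members had a day 7 median of 0.07 and slow fibre members of -0.19. The fast and slow forms did not keep an order on that day: Tnni1 was at 1.35 and Tnni2 at -0.09, while Mybpc2 was at 1.26 and Mybpc1 at -1.91, the last with its PF68 arrays at 1.90 and -0.85.

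Between PF68 lungs of day 7 and day 1, 1 of 34 members passed, against 7.73% of all genes (4.06% as lower), and 9 had an unadjusted p under 0.05 (26.2% of all genes). The median difference was 0.02. The PF68 day 1 arrays also stand in the contrast that chose the members. Acta1 fell by 0.86 (-0.86 ± 0.18, limma, adjusted p = 0.0461; lower on each day 7 array), or -0.26 from the array median, where it was not called (adjusted p = 0.134). With 1 array left out in turn the Acta1 difference was -0.98 to -0.74. Those fits leave 1 array in a group, so no calls are given from them. With the replicate number as a block Acta1 was not called (limma, adjusted p = 0.0682), against 0.0605% of all genes called. Tnni1 (-2.09 ± 0.46, adjusted p = 0.0526), Tcap, the titin cap gene, at 1.43 and 1.64 on day 1 and 0.70 and 0.92 on day 7 (-0.73 ± 0.18, adjusted p = 0.0706), Casq1 (0.91 ± 0.27, adjusted p = 0.101), Myh2 (0.84 ± 0.25, adjusted p = 0.107) and Pvalb (-0.80 ± 0.27, adjusted p = 0.134), were not called. For 12 members both day 7 arrays were below both day 1 arrays (25.5% of all genes) and for 6 above (29.6%). With spike scaling 9 members were called lower (29.1% of all genes called in either direction), among them Acta1 and Tcap.

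From day 1 to day 7 in SWCNT lungs, 27 members were lower by at least 1 log2 unit (4.28% of all genes) and 31 were lower without overlap (23.6%), with a median of -1.88. These arrays were also in the contrast that chose the members, and this comparison shares the SWCNT day 1 arrays with that one. Tnnc2 differed by -6.01, Acta1 by -5.80 and Myh1 by -5.58. Actn3 (0.33) was the only member whose day 7 arrays were both above its day 1 arrays (32.5% of all genes), at -1.16 and -1.15 against -1.37 and -1.61.

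Of 66 other genes of striated muscle, listed by function and not members, 2 rose on day 1, none fell and the other 64 did not pass, against 0.676% of all genes called and 0.28% called higher; 26 had an unadjusted p under 0.05 (14.2% of all genes). The median difference was 0.48, and 31 were higher and 6 lower without overlap, beside the 22.8% and 25.6% of all genes given above. Myh8, the heavy chain of newborn and regenerating muscle, read -2.46 and -2.24 in PF68 and 1.06 and 1.42 in SWCNT, then -2.08, -2.65, -2.64 and -2.01 on day 7. It rose by 3.59 ± 0.30 (limma, adjusted p = 0.0162), or 1.87 from the array median. Trim63, a ubiquitin ligase of muscle protein breakdown, rose by 2.28 ± 0.28 (limma, adjusted p = 0.0449). With all probe sets of a gene averaged Trim63 was not called (limma, adjusted p = 0.0528). With 1 array left out in turn, Myh8 differed by 3.41 to 3.77 and Trim63 by 2.0 to 2.55. Those fits leave 1 array in a group, so no calls are given from them. The replicate block left 0 calls, against 0.159% of all genes. The count was 11 without dim probe sets (2.17% of all genes) and 15 from the array median (3.86%). With a variance trend it was 15 (14 higher, 1 lower), against 6.38% of all genes. Myh8 and Trim63 pass the filter on dim probe sets only through the SWCNT day 1 arrays. Counting from the array median gives all dim signals the same value, so the spread between dim arrays is lost. The counts with these settings are therefore not read as support.

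By function, the other sarcomere genes held 1 riser among 21 measured, Trim63, with a median of 0.47; Myom2, an M-band protein gene, was at 1.98 (limma, adjusted p = 0.0542), Klhl41 at 1.38 and Ttn, the titin gene, at 1.15. Of 9 other genes of excitation and contraction none was called, 3 had an unadjusted p under 0.05, and the median was -0.07. The largest positive difference was that of Hrc at 0.82. Jph1 had the largest difference in size and was lower without overlap (-1.6 ± 0.84, limma, adjusted p = 0.463), or 0.0 from the array median. Of 13 other energy genes none was called and 8 had an unadjusted p under 0.05, with a median of 0.51; the fatty acid carrier gene Fabp3 was at 1.42, the mitochondrial creatine kinase gene Ckmt2 at 1.37 and Cox8b at 1.13. None of 7 genes of the neuromuscular junction was called or had an unadjusted p under 0.05 (median -0.17). Myogenic factors and developmental genes had 1 of 9 called, Myh8, with a median of 0.65; the factor genes Myod1 (0.79), Myog (0.34), Myf5 (0.65) and Myf6 (1.12) and the satellite cell gene Pax7 (0.08) were below the array median on all 8 arrays. On day 7 none of the 66 was called by limma (0.132% of all genes), and 11 had an unadjusted p under 0.05 (17.8% of all genes).

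Some markers of other tissues also rose on the same arrays, while most of each list was not called, and their part in the result was not tested. Of 12 cardiac markers 2 rose on day 1, Nppa by 4.43 ± 0.21 (adjusted p = 0.00311) and Myl7 by 1.03 ± 0.12 (adjusted p = 0.042), with a median of 0.88. The cardiac list had a mean level of 1.39 to 1.40 in PF68 day 1, 2.31 to 2.41 in SWCNT day 1, 1.19 to 1.34 in PF68 day 7 and 1.08 to 1.29 in SWCNT day 7. Its genes Myh6, Tnni3, Tnnt2, Myl7, Myl4 and Actc1 were above the array median on all 8 arrays, and Tbx20 was below it on all. Myh6, the atrial and adult heart heavy chain, differed by 1.00 ± 0.13 (adjusted p = 0.052), against 6.41 for Myh1.

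Of 13 squamous epithelium markers 3 rose, Krtdap by 6.55 ± 0.85 (adjusted p = 0.0482), Krt4 by 4.90 ± 0.36 (adjusted p = 0.0105) and Mt4 by 4.72 ± 0.19 (adjusted p = 0.00311), with a list median of 0.47. Krt13, at 5.0 ± 0.80, was not called (adjusted p = 0.0855). The mean level of that list was -1.52 to -1.34 in PF68 day 1, 0.56 to 0.61 in SWCNT day 1, -1.31 to -1.21 in PF68 day 7 and -1.82 to -1.24 in SWCNT day 7. Its genes Krt14, Ivl and Lypd3 were dim on all 8 arrays. Of 10 adipocyte markers 4 rose: Car3 by 3.41 ± 0.13 (adjusted p = 0.00311), Adipoq by 2.90 ± 0.22 (adjusted p = 0.0121), Pck1 by 2.0 ± 0.25 (adjusted p = 0.0455) and Fabp4 by 1.64 ± 0.14 (adjusted p = 0.0154). That list stood at -0.05 to 0.07, 1.51 to 1.57, 0.43 to 0.50 and -0.17 to 0.26 in the 4 groups in the same order. None of 9 smooth muscle markers was called and 5 had an unadjusted p under 0.05 (median 0.38; list levels 1.95 to 2.03, 2.41 to 2.43, 1.72 to 1.75 and 1.68 to 1.86). All these calls are by limma. The lung markers had a median difference of 0.00, with none of 9 called and 1 at an unadjusted p under 0.05.

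**Figure D4:**
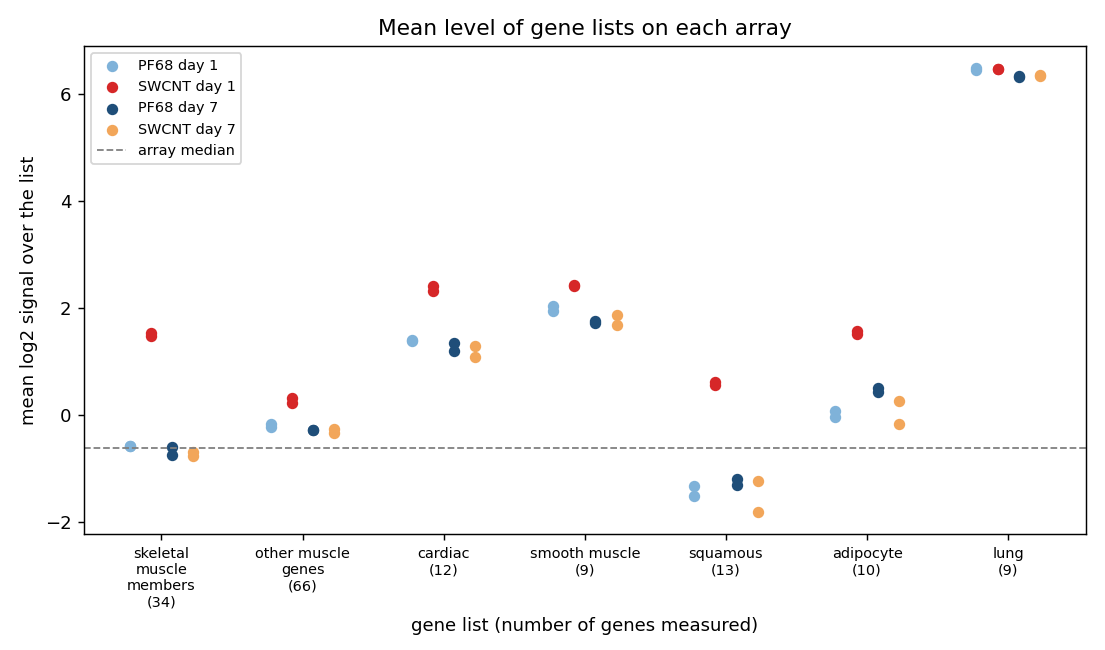
Mean log2 signal (y axis) of the members and of 6 other gene lists (x axis, number of genes measured in parentheses), with 1 point per array coloured by group. The SWCNT day 1 points are above all others for the members (1.53 and 1.48), the other muscle genes and the cardiac, smooth muscle, squamous and adipocyte lists, but not for the lung list.

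How closely a gene followed the set was described by Pearson's r across the 8 arrays, which share the same SWCNT day 1 pair at the high end. Against the mean of the other 33 members, Acta1 reached 0.992, Tnnt3 0.986, Myl1 0.979 and Eno3 0.979, whereas Mybpc1 was at 0.064, Trdn at 0.056, Tnni1 at 0.218 and Actn3 at -0.317. Of 2948 other genes with a range of at least 2, the 10 nearest to the mean of the 34 members were Serpinb12 (0.994), Myh8 (0.99), Krt4 (0.99), Mt4 (0.981), Trim63 (0.973), Gm94 (0.966), Ckmt2 (0.965), Myl3 (0.964), Crct1 (0.953) and Lce3f (0.948). Muscle genes (Myh8, Trim63, Ckmt2 and Myl3) and genes that squamous epithelium expresses (Krt4, Mt4, Crct1 and Lce3f) are both among them.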

How the data were processed

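Total RNA of 8 lung lobes was labelled with biotin and hybridized to Affymetrix arrays, as the labels' protocols state. The authors' deposited values, 1 per probe set and array, were taken as log2; the submitters' processing notes name RMA, without version, and neither log base nor offset was stated. All arrays share the same sorted values, as quantile normalization leaves them.

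Of 45101 probe sets, 64 control probe sets and 8 with a missing value were left out. A platform annotation gave 34939 of the rest 1 gene symbol, 931 several and left 9159 unlisted; symbols were updated through a RefSeq table of GRCm38.p6. Of a gene's probe sets the one with the highest mean stood for it, with no filter on low values, since 11 of the 28 members that pass a filter at the array median on at least 2 arrays do so only through the SWCNT day 1 arrays. Of the members, 24 had 1 probe set and 10 several; in 4 of these the probe sets differed in sign on day 1.

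With all 8 arrays and 18191 genes, 4 group means were estimated by limma 3.58.1 in R 4.3.3 (4 residual and 1.68 prior degrees of freedom), with Benjamini-Hochberg adjustment over all genes of a contrast at 0.05; ± is the SE from the moderated variance. The number of arrays limits the precision. The procedure was tested on simulated data.

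The members and lists were chosen with earlier results of these data known. Every member could be named. Values on every array were given in each role for the 2 members with the largest and the 1 with the smallest day 1 difference, for the myosin heavy chains and troponins, and for up to 6 members with the smallest adjusted p in the tested contrasts. Up to 4 genes with the largest day 1 differences were named of each other list, and the 10 genes most like the members. Myh7, Atp2a2, Myf5, Myog, Pax7, Fabp4, Krt14, Ivl, Lypd3, Tbx20 and the other cardiac genes were named after their values were seen. Alternatives covered the filter, the probe set, a floor at the array median, spike scaling, the replicate block, the variance model, array weights, the arrays fitted and leaving out each array. The count of members without overlap was added after seeing the data. Figures were drawn with matplotlib 3.10.9.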

Additional observations from a re-analysis of the deposited data

Results flagged for a closer look

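In 5 members every SWCNT array lay above both PF68 arrays on day 1 and below both on day 7: Myh2 (-1.03 on day 7), Tnnc2 (-1.07), Casq1 (-1.37), Pygm (-0.42) and Neb (-1.95). The difference between the days was not tested for them, because the day 1 contrast chose the members. Counted from the array median the day 7 values of Tnnc2 and Neb were 0.00 and that of Myh2 was -0.05. Without overlap 29 of the 34 members were higher on day 1, and 7 were lower on day 7 (23.1% of all genes). The share of all genes with both patterns was not counted, so nothing is read from these 5.

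In 5 marker genes of other tissues the SWCNT effect on day 7 minus that on day 1 passed limma's interaction test (n = 2 arrays per group): the adipocyte genes Car3 (-5.71, adjusted p = 0.00244) and Adipoq (-3.97, adjusted p = 0.0218), the squamous genes Mt4 (-5.02, adjusted p = 0.0124) and Krt4 (-4.63, adjusted p = 0.0498) and the cardiac gene Nppa (-3.36, adjusted p = 0.0303). Over all genes 0.275% passed this test. On day 7 itself Car3 was lower in SWCNT than in PF68 (-2.3, limma, adjusted p = 0.0193). Between the PF68 groups Car3 (1.95, limma, adjusted p = 0.00976) and Adipoq (1.08, limma, adjusted p = 0.0457) were higher on day 7. Their interaction values thus hold more than the day 1 difference. Mt4, Krt4 and Nppa were called in neither of these comparisons. The marker lists were chosen with earlier results of these data known.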

How the results depend on the processing

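The day 1 median over the members (1.76) was 2.08 with the filter on low values, 1.53 with a floor at the array median and 1.54 with spike scaling, and 1.77 to 1.95 with 1 array left out. The day 7 median (0.07) was 0.60 with spike scaling and -0.02 to 0.13 with 1 array left out. The fast minus slow gap (3.17) was 2.58 with the filter, 2.28 with all probe sets averaged, 2.53 with the floor and 2.62 to 3.39 with 1 array left out. The count of members above PF68 on every day 1 array (29) was 26 to 31 over all settings tried. Spike scaling, used as an alternative to the deposited scale, moved the median gene to -0.23 on day 1, 0.54 on day 7 and -0.55 between the PF68 groups.

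Shares of all genes called in either direction stand in parentheses after each setting. Members called on day 7 (0) were 1 with the filter (2.18%), 8 with spike scaling (26.6%) and 1 with trend and robust variances (7.79%). Members called between PF68 day 7 and day 1 (1) were 2 with the filter (17.7%) and 9 with spike scaling (29.1%). With trend and robust they were 3 (18.5%). They were 0 with all probe sets averaged (1.3%), without ambiguous probe sets (4.21%) and with array weights (5.44%). With the arrays of the contrast only they were also 0 (0%). With the floor the 1 call was Casq1, higher (14.1%). Other muscle genes called on day 1 (2) were 11 with the filter (2.17%) and 1 without ambiguous probe sets (0.418%). With all probe sets averaged they were still 2, but these were Myl3 and Myh8 (0.374%). They were 15 with the floor (3.86%), 15 with trend and robust (6.38%) and 4 with array weights (0.896%). With the arrays of the contrast only they were 0 (0%). The filter keeps some of these genes only through the SWCNT day 1 arrays, and the floor removes the spread of dim signals. The causes were not tested. With 1 array left out a lone array is assumed to vary like the other groups, so no calls are given from those fits.

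With the replicate number as a block 0 members were called in the PF68 contrast, 0 on day 7 and 0 of the other muscle genes on day 1. Over all genes the shares were 0.0605%, 0% and 0.159%. Deviations of same-numbered arrays correlated by only -0.004 to 0.015 over all genes, so no pairing by number was seen. A factor shared in few genes would not show in such a correlation. Dim signals, below the array median on both PF68 day 1 arrays for 18 members, limit the precision of the largest differences.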
